A study of Mus musculus with 11 samples.

Results

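Rod photoreceptors are by far the commonest cell of the mouse retina, and Nrl, a transcription factor of the basic leucine zipper family, directs photoreceptor precursors to the rod fate. In its absence the precursors become cone-like photoreceptors. The gene lies on chromosome 14 (GRCm38/mm10, chr14:55518978-55524981, minus strand), and the non-coding transcription over the surrounding chromosome is described here feature by feature. Features were taken from the deposited table when they lay wholly between chr14:45520000-65520000 and did not overlap chr14:48550000-49400000, an interval that the selection leaves out. This gave 274 of the 36097 unique features of the table, 143 on the plus and 131 on the minus strand, with a median length of 282 bp and a range of 100 to 12042 bp. A feature is a transcribed interval assembled from the reads, named MSTRG with a number, or in 2 cases by an Ensembl gene identifier.

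Retinas were taken at postnatal day 21 from Nrl knockout mice (6 libraries) and wild-type mice (5 libraries), and their RNA was sequenced after removal of polyadenylated transcripts. The labels give genotype, tissue and age for both groups but no allele, strain or sex, and they number the replicates without naming animals. The p-values below therefore measure the spread between libraries, which may in part be technical. Values are normalised counts, the read counts of a feature divided by a size factor of its library, and the recovered reads in listed features numbered 3374221 to 4876429 in knockout libraries and 3238184 to 4150460 in wild-type libraries. The features studied here received 10939 to 13663 reads in a knockout library and 10203 to 13950 in a wild-type library, so that 3 reads correspond to 2.28 to 4.11 normalised counts. Across the table, correlations of log2 values were 0.890 to 0.941 within knockout, 0.880 to 0.941 within wild-type and 0.672 to 0.745 between the groups. Of 40 tested features at rod marker genes 29 fell and 4 rose, and of 27 at cone marker genes 18 rose and 2 fell. Among all 21395 features tested, 15.6% rose and 12.6% fell. Features at rod genes summed to 572 to 981 normalised counts in knockout and 3414 to 5705 in wild-type libraries, and those at cone genes summed to 1277 to 1974 in knockout and 378 to 422 in wild-type libraries. The part of this shift in photoreceptor type in the differences below was not tested, and in bulk retina fewer cells of a type cannot be told apart from less RNA per cell.

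Of the 274 features, 82 were classed as antisense to a coding gene, 14 as antisense to a non-coding gene and 137 as intergenic. Antisense transcripts are read from the strand opposite to a gene, and intergenic ones from sequence between genes. Topologically associating domains are stretches of chromosome that contact themselves more than their neighbours, and the table assigns each feature to such a domain (names starting with TAD) or to the sequence between domains (interTAD). Reads were stranded, but no source used here says whether counting took strand into account. A feature's reads therefore cannot be told apart with certainty from those of the gene opposite to it.

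The sequences of 2 stretches are shown because called features lie over the start of a coding sequence and over a promoter there. The first is the start of the Nrl coding sequence, on the Nrl strand at chr14:55522319-55522468, where capitals mark the bases that also lie in MSTRG.28375. The second is the stretch before the Klhl33 start, chr14:50897484-50897733 on the minus strand, all of it inside MSTRG.28103. The first comes from a GENCODE M21 transcript and the second from the RefSeq promoter table, both GRCm38.
Nrl first coding bases: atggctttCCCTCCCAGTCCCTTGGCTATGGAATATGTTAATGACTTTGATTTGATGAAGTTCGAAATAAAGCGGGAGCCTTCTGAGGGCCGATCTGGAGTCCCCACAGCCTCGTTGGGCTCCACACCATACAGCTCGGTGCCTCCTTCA
Klhl33 promoter: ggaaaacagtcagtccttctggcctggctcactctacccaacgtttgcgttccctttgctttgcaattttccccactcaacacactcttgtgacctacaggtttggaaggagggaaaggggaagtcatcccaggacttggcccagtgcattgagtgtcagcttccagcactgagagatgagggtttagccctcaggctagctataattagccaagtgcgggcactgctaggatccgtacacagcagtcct

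The features flanking Nrl changed in opposite directions. MSTRG.28375 (chr14:55521461-55522460, plus strand) lies inside Nrl and opposite to it, and includes all but the first 8 of the coding bases printed above. It was listed at 0 in 5 of the 6 knockout libraries and at 0.758 in the other, against 48.0, 55.5, 39.0, 34.8 and 33.3 normalised counts in the wild-type libraries. The groups were far apart. In the 9 libraries used for the count tests it had 1 read in 5 knockout and 172 reads in 4 wild-type libraries, a wild-type level 245 times that of knockout (95% counting interval 43.3 to 9718). On the log2(value + 1) scale it fell by 5.27 ± 0.37 (SE; limma, adjusted p = 7.43e-12). The messenger RNA of Nrl was not analysed here, and the feature checks the labels only as far as its reads come from the locus.

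MSTRG.28377 (chr14:55525868-55526801, minus strand) is intergenic and its middle lies 1.35 kb beyond the end of Nrl, upstream of the gene. It ran from 1.95 to 9.60 in knockout libraries with a median of 6.26, against 134, 183, 69.6, 131 and 67.6 normalised counts in the wild-type libraries, a fall of 4.11 ± 0.34 on the log2 scale (SE; limma, adjusted p = 1.57e-10). MSTRG.28378 (plus strand), opposite to the non-coding gene Gm10876 and 5.69 kb from Nrl, had the largest increase of the 179 features tested. Its values ran from 340 to 452 with a median of 421 in knockout libraries, against 5.49, 0.941, 1.86, 2.90 and 2.02 normalised counts in wild-type libraries. It rose by 6.92 ± 0.25 on the log2 scale (SE; limma, adjusted p = 1.40e-17), and no library of either group came near the other group. Thus 2 neighbours on opposite strands, both within 6 kb of the gene, moved in opposite directions.

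On the other side of Nrl, features opposite to Carmil3, which encodes a regulator of actin capping, were higher in knockout. MSTRG.28370 (minus strand, 12.3 kb away) averaged 47.3 ± 10.5 normalised counts in knockout and 12.1 ± 4.60 in wild-type libraries (SD, n = 6 and 5), with no overlap, and rose by a log2 difference of 1.93 (limma, adjusted p = 1.16e-06). MSTRG.28368 averaged 11.2 ± 4.08 in knockout and 5.11 ± 2.82 in wild-type libraries with overlapping values (log2 difference 1.06, limma adjusted p = 0.0304), and lost its call without any one of knockout replicates 3 and 4 and wild-type replicates 2 and 3, with adjusted p up to 0.110. MSTRG.28371 did not pass the test, at 7.99 ± 3.54 in knockout and 3.43 ± 0.889 in wild-type libraries (limma adjusted p = 0.0582; 0.0327 without knockout replicate 1), and neither did the intergenic MSTRG.28362, at 6.05 ± 3.50 in knockout and 8.70 ± 6.94 in wild-type libraries (limma adjusted p = 0.824). Across Nrl, on its higher-coordinate side and 108 kb away, MSTRG.28405, opposite to Ipo4, which encodes a nuclear import receptor, averaged 17.9 ± 3.21 in knockout and 1.59 ± 1.41 in wild-type libraries and rose by 2.98 on the log2 scale (limma, adjusted p = 1.22e-07).

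**Figure D1:**
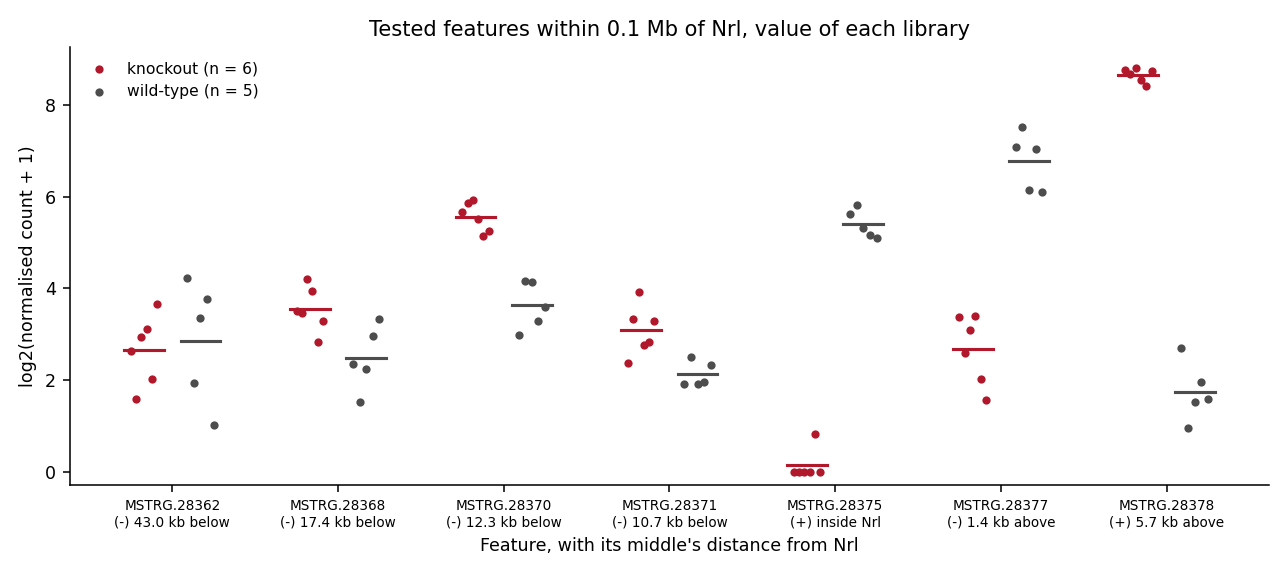
Value of each library (points, log2 of normalised count plus 1) and group mean (bars) for the 7 tested features within 0.1 Mb of Nrl, knockout left of wild-type in each pair, ordered along the chromosome with strand and distance below. The feature inside Nrl and its nearest upstream neighbour are lower in every knockout library than in any wild-type library, and the rightmost feature is higher in every knockout library.

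Over the whole stretch, 73 of the 179 features tested (40.8%) differed at an adjusted p below 0.05, 37 higher and 36 lower in knockout, against 28.1% of the 21395 features tested in the table (15.6% higher and 12.6% lower). Features were tested when their mean over all libraries was at least 5, which 179 of the 274 reached. Changes of at least 4-fold were made by 40 features, against 11.4% in the table, and the library values of the groups did not overlap for 52 features, against 20.2% in the table. The median log2 difference was -0.06, beside -0.02 in the table, while the median absolute log2 difference was 0.68, beside 0.44. On the rest of chromosome 14, 157 of 695 tested features (22.6%) were called, 70 higher and 87 lower, with a median absolute log2 difference of 0.43. Where the mean reached at least 20, 33 of 70 (47.1%) were called here, against 38.9% of 8266 in the table. In the authors' deposited table, 85 members had an adjusted p below 0.05, 40 higher and 45 lower, against 19.4% of all features, and 67 of the 73 limma calls were among them. The interval left out holds a further 57 tested features, of which 13 were higher and 32 lower.

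With distance from Nrl, the share of features called did not fall evenly. Within 1 Mb, 14 of 22 tested features were called (8 higher, 6 lower) with a median absolute log2 difference of 1.09, and between 1 and 10 Mb 59 of 157 were called with a median of 0.60. Within 0.1 Mb the calls were 5 of 7, between 0.1 and 0.5 Mb 3 of 7, between 0.5 and 1 Mb 6 of 8, and between 1 and 2.5 Mb 5 of 18, all of which are thin bins of under 20 features. Between 2.5 and 5 Mb the share was again high, at 28 of 55, and between 5 and 10 Mb it was 26 of 84. With a mean of at least 20, only 7 features remained within 1 Mb, of which 4 were called, and 29 of 63 were called farther out. The share called at that mean was 38.9% in the table. As a description over features that share libraries, Spearman's rho between distance and absolute log2 difference was -0.22 over the 179 features, -0.03 over the 67 on the lower-coordinate side and -0.11 over the 111 on the higher-coordinate side.

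**Figure D2:**
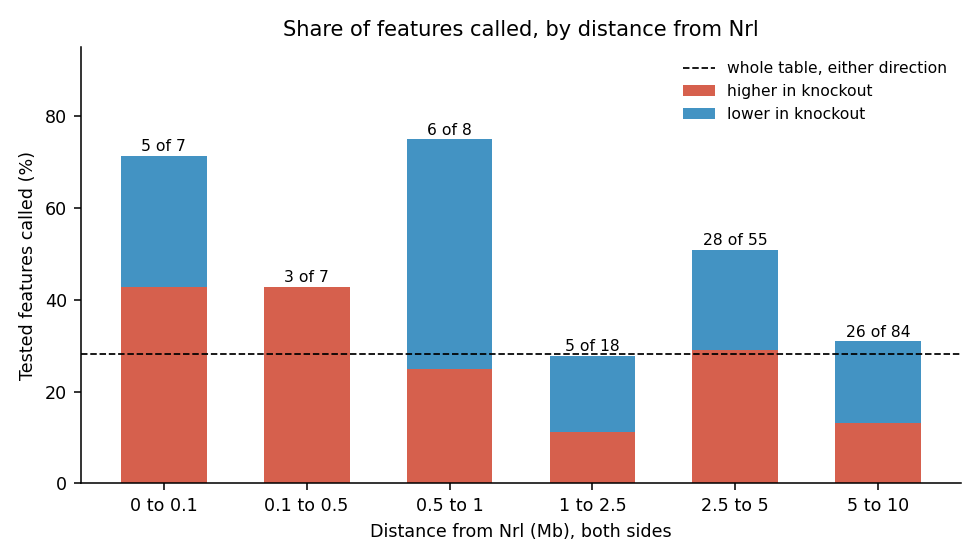
Percentage of tested features called higher (red) and lower (blue) in knockout against distance from Nrl in Mb, both sides together, with the number called of the number tested above each bar and the share over the whole table as a dashed line at 28.1%. The bars are highest at 0 to 0.1 Mb and at 0.5 to 1 Mb, followed by 2.5 to 5 Mb, and the first 4 bars each rest on fewer than 20 features.

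Between 0.5 and 1 Mb all 8 tested features lay on the lower-coordinate side. MSTRG.28310, opposite to the amino acid transporter gene Slc7a8, averaged 27.9 ± 13.0 in knockout and 7.81 ± 3.13 in wild-type libraries and rose (log2 difference 1.67, limma adjusted p = 1.53e-04). MSTRG.28301, opposite to Acin1, averaged 10.4 ± 7.20 in knockout and 40.0 ± 23.9 in wild-type libraries and fell (log2 difference -1.91, limma adjusted p = 3.31e-04), although knockout and wild-type values overlapped. MSTRG.28306 fell as well, at 2.89 ± 1.88 in knockout and 13.5 ± 3.83 in wild-type libraries (log2 difference -2.02). MSTRG.28312, opposite to Homez, fell by 1.04 (limma adjusted p = 0.0395), a call that did not survive 10 alternatives and reached an adjusted p of 0.126 without wild-type replicate 4. MSTRG.28358, 0.143 Mb from Nrl, rose by 1.16 (limma adjusted p = 0.0276) but passed neither edgeR (adjusted p = 0.144) nor DESeq2 (adjusted p = 0.221).

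The sides of Nrl had these counts by direction. Toward lower coordinates 23 of 67 tested features rose and 10 fell, with a median log2 difference of 0.32. Toward higher coordinates 14 of 111 rose and 25 fell, with a median of -0.12. Among all 21395 features tested, 15.6% rose and 12.6% fell, with a median of -0.02. At 2.5 to 5 Mb the lower-coordinate side had 15 higher and 3 lower of 31, and the higher-coordinate side 1 higher and 9 lower of 24. Of those 9 falls, 5 lay opposite to 1 gene, Atp8a2, and the others lay in pairs of neighbouring features. The difference between the sides was not tested, because features of one side share neighbouring transcripts.

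**Figure D3:**
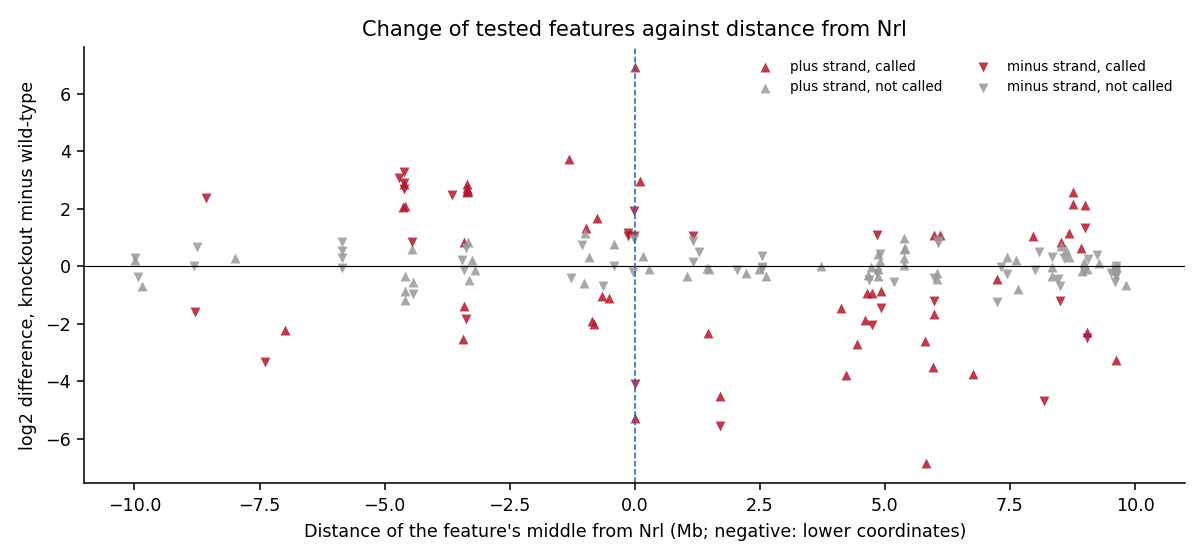
Log2 difference, knockout minus wild-type, of the 179 tested features against the distance of their middle from Nrl in Mb (negative toward lower coordinates); upward triangles are plus-strand and downward triangles minus-strand features, red are called. Clusters of positive values at about 4.6 and 3.35 Mb on the left are the runs near Klhl33 and opposite to Supt16, and the largest falls on the right include MSTRG.28644 and MSTRG.28468.

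Of the 23 higher features on the lower-coordinate side, 10 belonged to 2 runs of 5 neighbouring features each, joined at gaps of at most 10000 bp. The first run (chr14:50884862-50902464) lies around Klhl33, a gene of the kelch-like family. MSTRG.28103, opposite to Klhl33 and containing its promoter, ran from 80.5 to 140 with a median of 104 in knockout libraries, against 26.1, 9.41, 13.9, 11.6 and 11.1 normalised counts in wild-type libraries. It rose by 2.86 ± 0.24 on the log2 scale (SE; limma, adjusted p = 2.60e-10), with no overlap. On the other strand, the intergenic MSTRG.28104, MSTRG.28106 and MSTRG.28108 rose by 3.29, 2.67 and 2.88. MSTRG.28104 had 54 reads in 5 knockout and 1 in 4 wild-type libraries, a ratio of 38.0 (95% counting interval 6.53 to 1527), and MSTRG.28106 had 57 reads in the knockout and 2 in the wild-type libraries. The same counts as for MSTRG.28104 were found for MSTRG.28091, opposite to Parp2, which encodes a poly(ADP-ribose) polymerase of DNA repair (log2 difference 3.05, limma adjusted p = 3.44e-06).

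The second run (chr14:52167937-52185252) is wholly on the plus strand and opposite to Supt16, which encodes a subunit of the histone chaperone FACT. Its 5 features rose by 2.57 to 2.84 on the log2 scale. MSTRG.28196 ran from 51.5 to 82.7 with a median of 65.5 in knockout libraries, against 5.49, 9.41, 8.35, 17.4 and 7.06 normalised counts in wild-type libraries (log2 difference 2.73, limma adjusted p = 2.00e-09). MSTRG.28195 averaged 69.6 ± 12.4 in knockout and 11.7 ± 5.67 in wild-type libraries, and MSTRG.28200 averaged 57.7 ± 9.58 in knockout and 8.94 ± 3.70 in wild-type libraries. MSTRG.28197, between them, did not pass the test (mean 7.84 in knockout and 4.61 in wild-type libraries, limma adjusted p = 0.144), but passed it without wild-type replicate 1 (adjusted p = 0.0418). In all, 25 runs of higher features were found, 6 with 2 or more members, and 29 runs of lower features, 6 with 2 or more and at most 3 members.

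**Figure D4:**
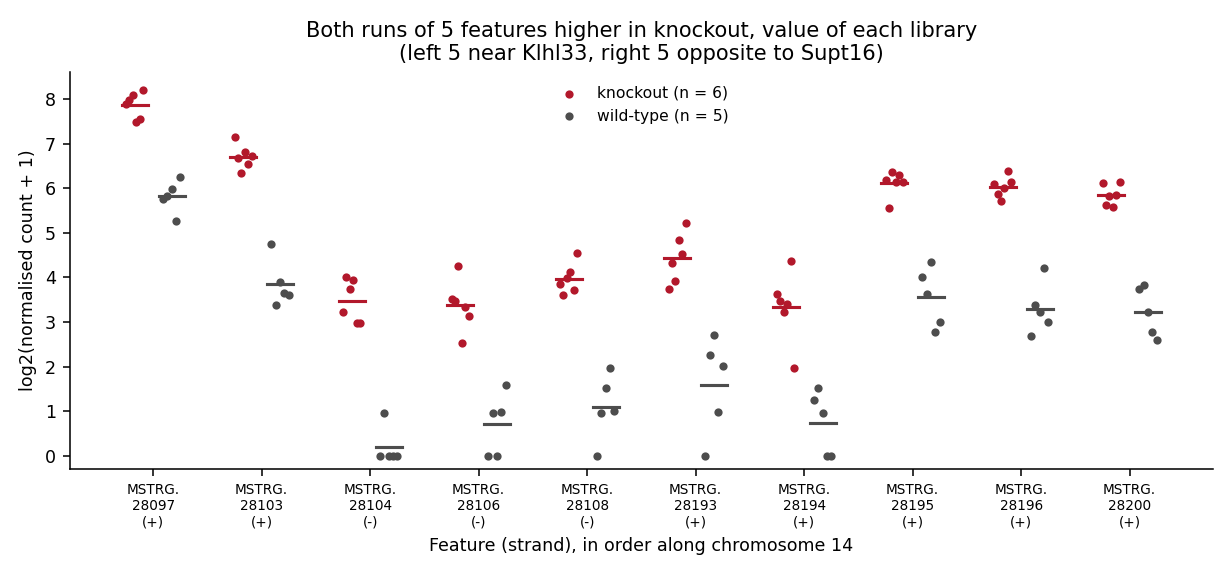
Value of each library (points, log2 of normalised count plus 1) and group mean (bars) for the 5 features near Klhl33 (left) and the 5 opposite to Supt16 (right), knockout left of wild-type in each pair. Every knockout library lies above every wild-type library in each of the 10 features.

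Of the tested features, 1 had no read in wild-type libraries. The intergenic MSTRG.28242 (chr14:54205193-54205417) ran from 5.81 to 22.2 in knockout libraries and was at 0 in all 5 wild-type libraries, with 61 reads in 5 knockout libraries, at least 14.3-fold higher against a floor of 3 reads over 4 wild-type libraries. By the rule of a mean of at least 20 in one group and under 3 in the other, 2 of the 274 members were on in knockout (MSTRG.28378 and MSTRG.28193), against 0.543% of all features, and 7 were off, against 0.898%. Of the 7, 1 lies in Nrl and the other 6 lie on the higher-coordinate side.

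The largest fall was MSTRG.28644 (chr14:61351153-61352868, plus strand), opposite to Ebpl, a gene related to the emopamil-binding protein of sterol synthesis. It ran from 0 to 3.91 with a median of 2.02 in knockout libraries, against 435, 404, 290, 234 and 208 normalised counts in wild-type libraries, and fell by 6.87 ± 0.35 on the log2 scale (SE; limma, adjusted p = 1.17e-14). The intergenic MSTRG.28468 (chr14:57234013-57236642, minus strand), with Gjb6, the gene of connexin 30, as its nearest coding start, was among the 5 most abundant features. It ran from 10.6 to 30.2 in knockout libraries, against 1296, 949, 816, 785 and 738 normalised counts in wild-type libraries, a fall of 5.55 ± 0.22 (SE; limma, adjusted p = 1.56e-16). Its plus-strand neighbour MSTRG.28469 averaged 1.72 ± 1.44 in knockout and 56.9 ± 20.1 in wild-type libraries (log2 difference -4.51). MSTRG.28766, opposite to Xkr6, was at 0 in 5 knockout libraries and 1.01 in the other, against 34.3, 35.8, 13.0, 31.0 and 33.3 in wild-type libraries (log2 difference -4.68, limma adjusted p = 5.95e-10). MSTRG.28685, opposite to Dleu7, and MSTRG.28649, in the non-coding gene 4930556J02Rik, fell by 3.77 and 3.51 on the log2 scale, at means of 1.01 and 1.37 in knockout and 24.1 and 25.0 in wild-type libraries. On the lower-coordinate side, the largest fall beyond 5 Mb was MSTRG.27942, opposite to Peli2, which encodes a ubiquitin ligase, at 12.2 ± 3.52 in knockout and 131 ± 33.4 in wild-type libraries (log2 difference -3.33).

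At genes of the stretch with known roles in photoreceptors, every called feature was lower. Most of these calls came from 1 gene: Atp8a2 supplied 5, and Nrl, Rpgrip1 and Rp1l1 supplied the others. Nrl, Rpgrip1, Rp1l1 and Atp8a2 had 15 features opposite to or on them, of which 12 were tested and 8 fell, while limma, edgeR and DESeq2 each called 0 higher, as did an unadjusted limma p below 0.05, with a median log2 difference of -1.33, beside -0.02 in the table, where 12.6% of tested features fell. Their summed level was 566 to 856 normalised counts in knockout and 1032 to 1515 in wild-type libraries. For Rpgrip1, which tethers RPGR at the connecting cilium, MSTRG.28184 averaged 37.5 ± 10.2 in knockout and 138 ± 45.7 in wild-type libraries (log2 difference -1.84, limma adjusted p = 3.73e-07). MSTRG.28186, also opposite to Rpgrip1, was at 7.55 ± 2.97 in knockout and 4.84 ± 3.00 in wild-type libraries and did not pass the test. Opposite to Atp8a2, a phospholipid flippase of photoreceptors, MSTRG.28564 averaged 1.37 ± 1.67 in knockout and 25.4 ± 4.29 in wild-type libraries (log2 difference -3.78) and MSTRG.28571 averaged 77.0 ± 18.8 in knockout and 152 ± 46.7 in wild-type libraries (log2 difference -0.95). MSTRG.28562, MSTRG.28565 and MSTRG.28568, opposite to Atp8a2 as well, fell by 1.45, 2.71 and 1.89. The abundant MSTRG.28572, opposite to the same gene, was at 504 ± 76.3 in knockout and 630 ± 81.5 in wild-type libraries (limma adjusted p = 0.136). Opposite to Rp1l1, whose product belongs to the photoreceptor axoneme, MSTRG.28785 fell by 1.22 (limma adjusted p = 0.0136), a call lost without wild-type replicate 2 (adjusted p = 0.0682). Also opposite to Rp1l1, MSTRG.28784 was at 59.5 ± 17.9 in knockout and 84.5 ± 36.3 in wild-type libraries. Neither it nor MSTRG.28786 passed the test (limma adjusted p = 0.225 and 0.121).

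Genes of chromatin and RNA processing had 16 tested features, of which 7 rose and 1 fell, with a median log2 difference of 0.87, beside 15.6% higher and 12.6% lower and a median of -0.02 in the table. The run opposite to Supt16 supplied 5 of the rises. The member that fell, MSTRG.28176, lies opposite to Hnrnpc, which encodes a protein bound to nascent transcripts, and averaged 6.77 ± 3.67 in knockout and 39.6 ± 12.7 in wild-type libraries (log2 difference -2.52, limma adjusted p = 1.78e-06). Opposite to Mphosph8, which encodes a reader of histone methylation, MSTRG.28446 rose by 1.04 (limma adjusted p = 0.0363), a call that was lost in 8 alternatives, with adjusted p up to 0.148. A list of genes around Nrl, which leaves out Carmil3 and Gm10876, had 6 tested features. Of these 2 were higher and 2 lower, beside 15.6% higher and 12.6% lower in the table. The 2 falls lay opposite to Acin1 and Homez, 853586 and 654074 bp from Nrl. The 2 rises lay opposite to Slc7a8 and Ipo4, 745942 and 108126 bp from it. Genes of glia, vessels and immune cells had 1 feature in the stretch, which was too low to test.

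Calls were counted on each strand. Of 99 plus-strand features 23 rose and 25 fell (48.5%), and of 80 minus-strand features 14 rose and 11 fell (31.3%), while in the table the shares were 27.9% on the plus and 28.4% on the minus strand; the difference between the strands in calls was not tested. In terms of counts, the plus strand held 49.1, 47.8, 50.7, 49.8, 53.9 and 51.2% of the normalised counts of the stretch in the knockout libraries and 46.2, 46.7, 46.7, 46.4 and 48.9% in the wild-type libraries. The groups overlapped, and the difference of 3.43 percentage points had p = 0.0108 in an exact two-sided permutation test over the libraries. Without MSTRG.28815, a minus-strand intergenic feature that was the most abundant of the 274, the plus-strand shares were 73.3 ± 0.961% in knockout and 62.4 ± 0.697% in wild-type libraries (SD, n = 6 and 5), a difference of 10.9 points with the smallest p that the exact permutation test can give, 0.00216. The size of the difference depended on single minus-strand features. Without MSTRG.28468, which was lower in knockout, the plus-strand shares were 50.5 ± 2.08% in knockout and 50.7 ± 1.17% in wild-type libraries. That was a difference of -0.189 points (exact permutation p = 0.870). Without both features they were 73.4 ± 1.01% in knockout and 69.1 ± 1.29% in wild-type libraries, a difference of 4.35 points (exact permutation p = 0.00216).

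The difference in the share of listed counts that the whole stretch took was smaller than the spread between libraries. The stretch held 0.303 ± 0.0509% of listed counts in knockout and 0.324 ± 0.0489% in wild-type libraries (SD, n = 6 and 5; exact permutation p = 0.496). MSTRG.28815 itself ran from 2281 to 4834 in knockout libraries, against 4204, 3269, 2757, 2956 and 2332 normalised counts in wild-type libraries, and did not pass the test (log2 difference 0.23, limma adjusted p = 0.403). MSTRG.28725, in the non-coding gene 4931440J10Rik, was at 928 ± 160 in knockout and 1264 ± 229 in wild-type libraries with overlapping values (log2 difference -0.44, limma adjusted p = 0.0367), and lost its call in 7 alternatives, with adjusted p up to 0.0949. MSTRG.28581 did not pass the test, at 318 ± 69.0 in knockout and 321 ± 52.6 in wild-type libraries, and neither did MSTRG.28512, at 190 ± 24.5 in knockout and 205 ± 22.3 in wild-type libraries. MSTRG.28858, on the strand of Extl3, which encodes a heparan sulfate glycosyltransferase, was at 238 ± 5.51 in knockout and 300 ± 17.5 in wild-type libraries without overlap, but did not pass limma (adjusted p = 0.0960), except when only features with a mean of at least 20 were tested (adjusted p = 0.0358). The share within 1 Mb of Nrl was 0.0218 ± 0.00256% in knockout and 0.0143 ± 0.00285% in wild-type libraries (exact permutation p = 0.00216, the smallest possible). Without MSTRG.28378 the direction was reversed, and the share was 0.0111 ± 0.00123% in knockout and 0.0142 ± 0.00285% in wild-type libraries (exact permutation p = 0.0260). That remainder still held MSTRG.28375 and MSTRG.28377, which fell in and beside Nrl, and the share without them was not tested. Of the calls within 1 Mb, 8 were higher and 6 lower.

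By position relative to genes, 35 of 62 tested features antisense to a coding gene were called (18 higher, 17 lower), and 29 of 81 intergenic features (15 higher, 14 lower), against 28.1% of all features tested in the table. Of the 15 tested features lying in a coding gene's own direction, limma, edgeR and DESeq2 each called 0, and 3 had an unadjusted limma p below 0.05. Of the 2 features with Ensembl names, the gene Gm17116 was at 12.5 ± 5.98 in knockout and 9.24 ± 1.95 in wild-type libraries (limma adjusted p = 0.599), and the other was below the mean needed for a test. Overlapping tested features on opposite strands formed 7 pairs, some with unlike values: MSTRG.28811 fell by 2.51 where MSTRG.28812 opposite to it had a log2 difference of -0.12, and MSTRG.28854 fell by 3.28 where MSTRG.28853 had -0.31.

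The features fell into 27 domains. Beside the counts of called members given below, 15.6% of all features tested in the table were higher and 12.6% lower. Counts summed per domain differed at an adjusted p below 0.05 for 14 of the 27 (7 higher, 7 lower), against 39.7% of the 2763 domains tested in the table. Among the 24 domains made up wholly of the features studied here, 12 differed (6 higher, 6 lower). The others include TAD_2026, whose sum was lower although 0 of its 4 tested members here were called by limma. The domain of Nrl, TAD_2031, summed to 704 ± 73.6 in knockout and 378 ± 59.8 normalised counts in wild-type libraries (log2 difference 0.90, limma adjusted p = 1.00e-05), with 6 members higher and 2 lower of 12 tested. Without MSTRG.28378 that sum was 296 ± 43.5 in knockout and 375 ± 59.1 in wild-type libraries (SD, n = 6 and 5), so the direction turned (exact permutation p = 0.0368). It still held the 2 members called lower, MSTRG.28375 and MSTRG.28377, with means of 0.126 and 6.08 in knockout and 42.1 and 117 in wild-type libraries. Every other called member of this domain was higher, and the sum without these 2 was not tested. TAD_2028, which holds Klhl33, Parp2 and Rnase4, summed to 824 ± 149 in knockout and 425 ± 69.6 in wild-type libraries (log2 difference 0.95), with 8 of 14 higher. TAD_2033, the domain of MSTRG.28468, summed to 262 ± 34.1 in knockout and 1322 ± 290 in wild-type libraries (log2 difference -2.31, limma adjusted p = 2.90e-10), and without that feature to 243 ± 33.2 in knockout and 405 ± 69.5 in wild-type libraries. TAD_2036, the domain of Atp8a2, had 5 of 7 lower. Of the domains with most tested features, TAD_2039 had 2 higher and 7 lower of 18 and a sum of 1098 ± 173 in knockout and 1841 ± 373 in wild-type libraries (log2 difference -0.74). TAD_2029 had 6 higher and 3 lower of 16 (log2 difference of the sum 0.37, limma adjusted p = 0.0157), and TAD_2043 had 1 lower of 15 (-0.32, adjusted p = 0.0153 by limma). The sums of TAD_2030 and TAD_2042 did not pass the test, with log2 differences of -0.05 and 0.20.

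**Figure D5:**
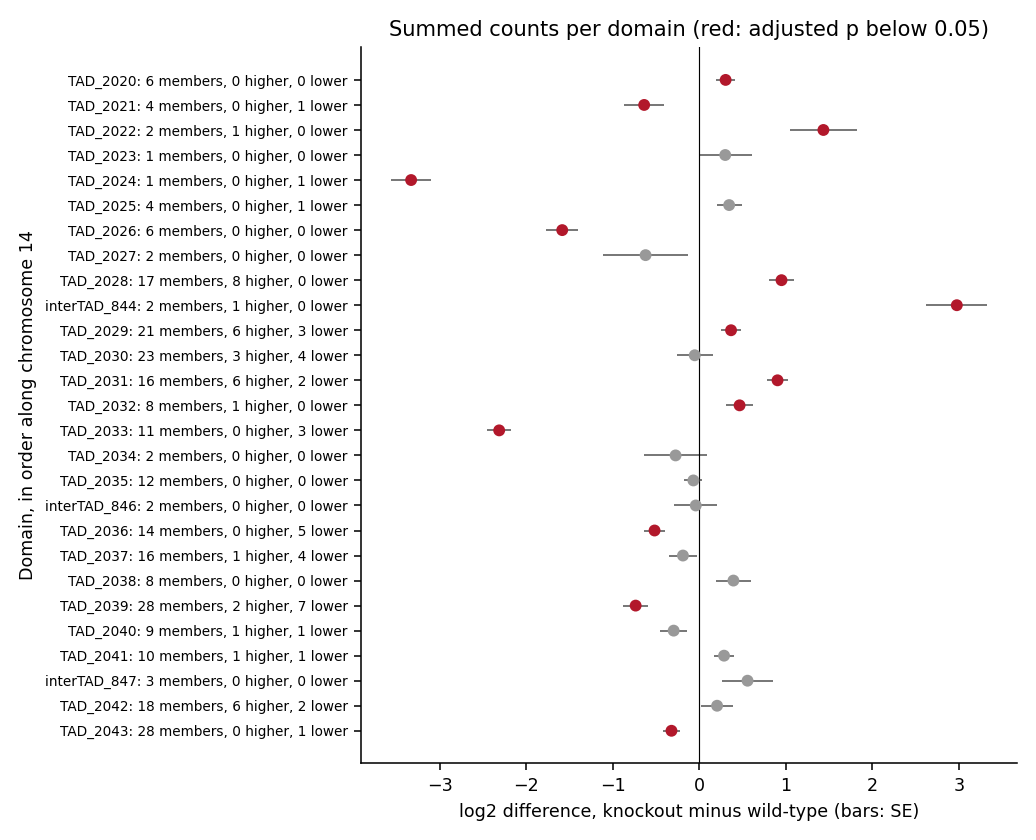
Log2 difference, knockout minus wild-type, of the counts summed over each of the 27 domains (points; bars are SE), in order along chromosome 14, with the number of members and of members called at the left; red points have an adjusted p below 0.05. Sums include all features of a domain, also those in the interval left out, which make up most of TAD_2025 and TAD_2026. TAD_2024 and TAD_2033 stand lowest and interTAD_844 highest.

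The authors' deposited table also lists, for each domain, messenger RNAs that were lower or higher in knockout. In domains with only higher messenger RNAs, 10 of 27 tested members rose and 1 fell, and in domains with only lower ones 6 of 43 rose and 10 fell. The corresponding shares over the whole table were 29.8% higher and 7.94% lower, and 9.07% higher and 25.6% lower. TAD_2028 alone supplied 8 of the 10 rises in the former domains, and TAD_2036 supplied 5 of the 10 falls in the latter. In domains listing both, 12 of 58 rose and 15 fell, beside 16.8% higher and 14.6% lower in the table. In domains listing none, 9 of 51 rose and 10 fell, beside 9.37% higher and 10.6% lower. In the domain of Nrl the authors' deposited table names Lrrc16b and Nrl as lower and Ipo4, Irf9 and Tssk4 as higher.

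At the borders of the selection, MSTRG.27878 just inside the low end was at 47.3 in knockout and 41.8 in wild-type libraries, and MSTRG.27864 just outside was at 6.49 in knockout and 4.87 in wild-type libraries. At the high end, MSTRG.28871 inside was at 5.14 in knockout and 6.90 in wild-type libraries, and MSTRG.28887 outside at 233 in knockout and 278 in wild-type libraries. Next to the interval left out, MSTRG.27946 outside it was at 3.68 in knockout and 16.6 in wild-type libraries, and MSTRG.27952 inside it at 18.5 in knockout and 8.34 in wild-type libraries. At its other end, MSTRG.28070 outside was at 23.9 in knockout and 15.8 in wild-type libraries, and MSTRG.28064 inside at 11.4 in knockout and 17.1 in wild-type libraries.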

How the data were processed

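Single-end, stranded 50 bp reads of poly(A)-depleted retinal RNA were sequenced, per the labels' protocols. The deposited signal values are counts per feature that the authors normalised with DESeq2, per the file headers; the table's name gives mm10. TopHat2 2.0.10, Cufflinks 2.2.1 and Cuffdiff are listed in the submitters' processing notes. No source used here gives the assembler, the counter, strand use in counting or the origin of the domains. The authors' deposited log2 fold changes, Wald score and adjusted p-values were used only where named; the score has the sign opposite to the fold change.

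Lines were reduced to unique features, and those with a mean of at least 5 entered limma 3.58.1 (R 4.3.3; trend and robust) on log2(value + 1), with Benjamini-Hochberg adjustment over 21395 features and calls at an adjusted p below 0.05. A fold change on this scale understates that of low features. The same test was run on domain sums. Shares of counts were compared by exact permutation. Distance runs from the nearest end of Nrl to a feature's middle. Starts in the table count from 0 and are printed from 1. In all 11 libraries values were whole multiples of 1 read within a tolerance of 0.001. edgeR 4.0.16 and DESeq2 1.42.0 were run as alternatives on 9 of them, leaving out knockout replicate 2 and wild-type replicate 5, whose normalised values lie so near to whole numbers that this step was less certain. Intervals and floors cover counting error only. Genes are from GENCODE M21.

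The features named are those tested within 0.1 Mb of Nrl, the 10 most higher and 10 most lower, the 5 most abundant and 5 most abundant uncalled, those at listed genes, those with Ensembl names and the largest change per distance bin and side; features at listed genes that were not called are mostly given as counts, and other features named were chosen after their values were seen. The selection, the gene lists and this rule were chosen with earlier results of these data known. Scripts were tested on simulated data.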

Additional observations from a re-analysis of the deposited data

Results flagged for a closer look

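In 12 of 126 groups of libraries examined, 4 knockout and 8 wild-type, 1 library stood apart from the rest of its group by Dixon's criterion at 95%; chance alone gives about 1 in 20 groups. The share of listed counts in the stretch was 0.405% in knockout replicate 1, against 0.271 to 0.297% in the other knockout libraries. The plus-strand share was 48.9% in wild-type replicate 5, against 46.2 to 46.7% in the other wild-type libraries. Wild-type replicate 1 was the highest of its group for MSTRG.28103 (26.1), MSTRG.28176 (61.7), MSTRG.28405 (4.11) and MSTRG.28564 (32.9 normalised counts). Wild-type replicate 3 was the lowest for MSTRG.28568 (8.35) and MSTRG.28766 (13.0). Knockout replicate 2 was the lowest for MSTRG.28195 (46.4). In the features listed at 0 in the rest of the group, knockout replicate 5 had 0.758 for MSTRG.28375, knockout replicate 2 had 1.01 for MSTRG.28766 and wild-type replicate 2 had 0.941 for MSTRG.28104.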

How the results depend on the processing

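Of the 73 calls, 58 kept their call and sign in each of 21 alternative fits that tested them, and 0 changed sign in any. edgeR on 9 libraries gave 35 higher and 40 lower features, DESeq2 30 and 40, and limma on the same libraries, an alternative chosen after seeing the data, 33 and 39. Of the 73 calls, edgeR shared 70 and DESeq2 65. A mean of at least 20, which tests fewer features, gave 15 higher and 20 lower calls, 4 within 1 Mb, 23 on the plus and 12 on the minus strand. Keeping the left-out interval in gave 68 lower calls, and 5 Mb to each side gave 21. Leaving out 1 library in turn gave 33 to 41 higher and 32 to 38 lower calls, 11 to 15 within 1 Mb, 44 to 50 on the plus and 21 to 27 on the minus strand, 12 to 15 domains, a plus-strand difference of 2.73 to 3.95 points, a difference in the share of the stretch of -0.0415 to -0.00558 points, and one within 1 Mb of 0.00662 to 0.00852 points. Without the most abundant feature within 1 Mb that difference was -0.00316, and without MSTRG.28468, chosen after seeing the data, the plus-strand difference was -0.189 points. Of 11 called domains of 2 or more members checked without the member that differed most, an alternative also chosen after seeing the data, 2 turned direction (TAD_2022 and TAD_2031). Same-numbered libraries did not pair: the correlations of their deviations were 0.294, 0.00135, 0.123, 0.0512 and 0.273, and 1 of the 5 numbers was its own best partner. With a replicate block, limma called 41 higher and 40 lower features and 16 domains; the plus-strand difference was 3.28 points and that within 1 Mb 0.00766 points, both with an exact permutation p of 0.0625, the smallest that 5 pairs can give. Low counts limit most features: 3 reads equal 2.28 to 4.11 normalised counts.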
